A study of Homo sapiens with 8 samples.

Results

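Amino acid transporters carry amino acids across the cell membrane, and 10 genes of this kind were examined in cervical cancer cells after knockdown of IGF2R, the receptor that delivers newly made hydrolases to the lysosome. They were SLC1A3, SLC1A4, SLC1A5, SLC3A2, SLC7A1, SLC7A5, SLC7A6, SLC7A8, SLC38A1 and SLC38A2, taken from a list of transporters by gene name. The choice was made with earlier results of these data known. Their 30 probe sets, each annotated with that gene alone, are among 54613 on the GeneChip arrays used. Of these 30, 15 reached a signal of 500 on at least 1 array and are called measured here. They stand for 8 of the 10 genes, among 16517 measured probe sets and 8961 measured genes in all.

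The groups were BOKU and SKG-I cells, both established cervical cancer cell lines, transfected by lipofection with an siRNA against IGF2R (siIGF2R) or a control siRNA (siCtrl) and collected after 72 h. All groups therefore shared the transfection, and all were grown in Ham's F12 medium with fetal bovine serum, which supplies amino acids. There was 1 RNA sample per line and siRNA, run on 2 arrays each. The 8 arrays therefore hold 4 RNA samples, and the 2 lines served as replicates. The sources used here do not say which of the study's siRNAs against IGF2R was put on the arrays, and each condition is a single transfection of each line.

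Values are MAS5 signals, a brightness per probe set on a linear scale, and differences are on the log2 scale, taken from the mean log2 signal of the duplicate arrays. Levels of different probe sets are not compared, because brightness depends on the probes. The target behaved as labelled. IGF2R (201393_s_at) gave 641 and 645 on the BOKU siIGF2R arrays and 7288 and 6710 on the BOKU siCtrl arrays. In SKG-I it gave 257 and 295 with siIGF2R, against 4120 and 3838 with siCtrl. It fell by 3.65 on the log2 scale (limma adjusted p = 0.0221, moderated standard error 0.21 over 2 lines). All standard errors given with limma are moderated. They rest mostly on the variance of all measured probe sets and only in part on the spread between the 2 lines. Duplicate arrays correlated at 0.984 to 0.989, and the ratio of 3′ to 5′ control probe sets was 0.913 to 0.988 for GAPDH and 1.16 to 1.30 for ACTB. The simple epithelial keratins KRT8, KRT18 and KRT19 reached 1939 or more on every array, while the basal keratins KRT5 and KRT14, which mark squamous cells, stayed at 45.9 or less. Of 6 leukocyte and endothelial markers on the arrays, 0 were measured. In bulk RNA such as this, fewer cells of a type and less RNA per cell cannot be told apart.

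Most cells take up amino acids through exchangers and sodium-driven carriers that work together. SLC38A1 and SLC38A2 bring in glutamine and other small neutral amino acids with sodium, SLC1A5 exchanges glutamine for other neutral amino acids, and SLC7A5, bound to the heavy chain SLC3A2, lets glutamine out in return for leucine and other large neutral amino acids. Leucine and arginine are signals for mTORC1, the growth kinase on the lysosome. When amino acids run short, the transcription factor ATF4 raises a program of transporters, tRNA synthetases and biosynthetic enzymes, known as the amino acid response.

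After IGF2R knockdown, none of the 15 measured transporter probe sets passed the limma test over both lines. The lowest adjusted p was 0.0694, for SLC38A1. Of all measured probe sets, 2.2% were called higher and 2.09% lower by limma, so that fewer than 1 call would be the background for 15 probe sets. At an unadjusted p under 0.05, 6 member probe sets were higher and 0 lower, against 4453 of all 16517 in either direction. These 6 were of SLC1A4, SLC7A1 and SLC38A1 only. By gene, 3 of 8 were higher and 0 lower, against 1286 and 1248 of all 8961 genes. The SLC1A4 probe sets 209610_s_at and 212811_x_at and SLC7A1 212290_at reached the signal of a measured probe set only on siIGF2R arrays. They could thus enter the count only by being high there, so the split of 6 to 0 does not show a shared direction. The median log2 change of the 15 was −0.08 in BOKU and 0.03 in SKG-I, and that of all measured probe sets was 0.03 in BOKU and −0.003 in SKG-I. Both medians lay near that of all probe sets, while single genes differed in direction and between lines.

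**Figure D1:**
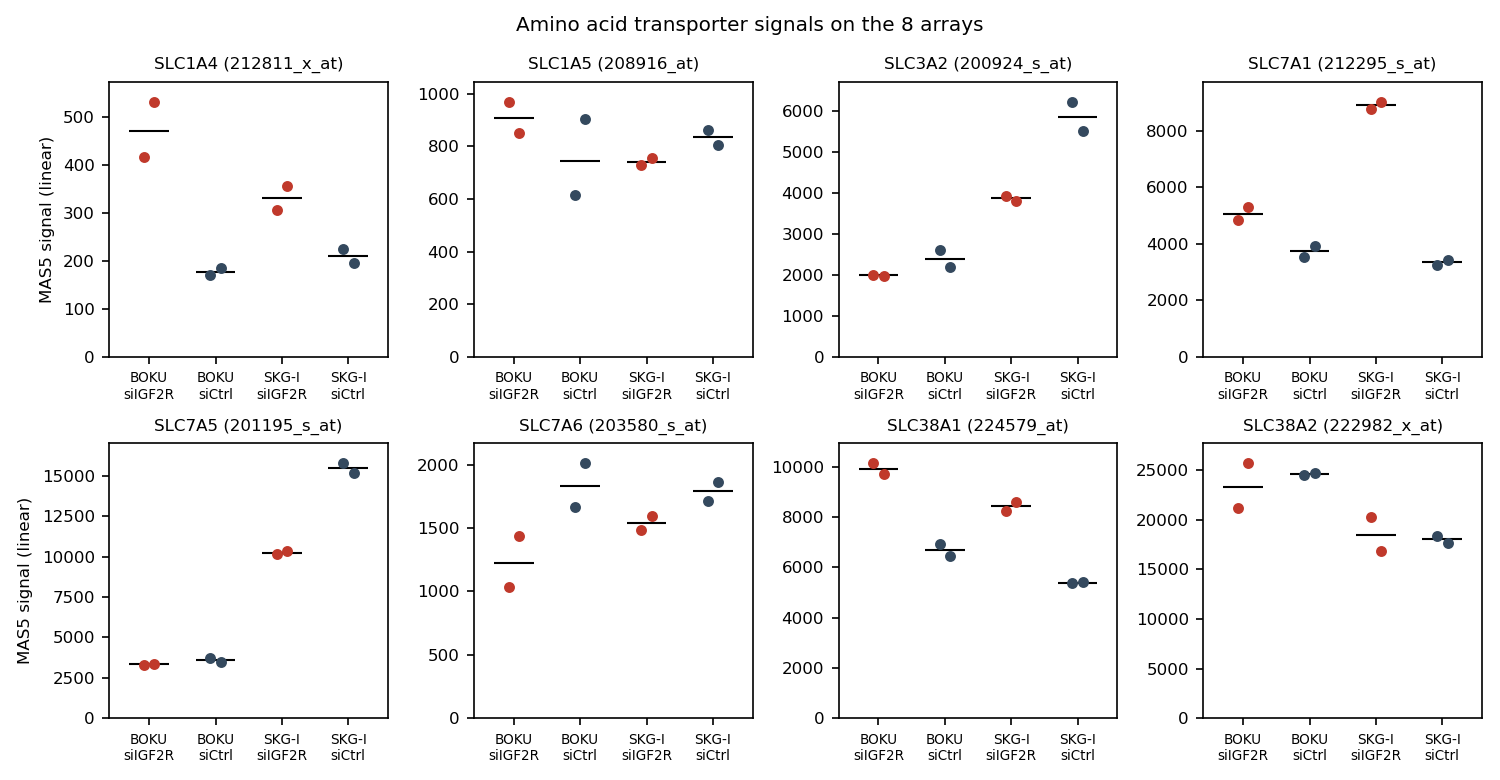
MAS5 signal (linear axis from 0) of the highest-signal probe set of each of the 8 measured transporter genes on the 8 arrays, siIGF2R in red and siCtrl in dark blue. Points are arrays, and horizontal bars are the geometric means of the 2 arrays of an RNA sample. SLC38A1 and SLC7A1 were higher with siIGF2R on all arrays of both lines, SLC3A2 and SLC7A5 lower.

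SLC38A1 was higher on the siIGF2R arrays by nearly the same amount in both lines. Its probe set 224579_at gave 10136 and 9710 on the BOKU siIGF2R arrays, against 6929 and 6456 on the BOKU siCtrl arrays. In SKG-I it gave 8254 and 8604 with siIGF2R, against 5394 and 5404 with siCtrl. Both siIGF2R arrays were thus above both siCtrl arrays in each line, by 1.48-fold in BOKU and 1.56-fold in SKG-I. The mean log2 change was 0.61 ± 0.14 (SE, the moderated standard error, 2 lines, limma adjusted p = 0.0694). Without BOKU siCtrl array 1 the limma adjusted p was 0.0445, so a single array decides this call. In the order of levels the BOKU siIGF2R arrays came first and the SKG-I siCtrl arrays last, and no 2 groups overlapped.

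The other probe sets of SLC38A1 differed in size. The measured 218237_s_at gave 8331 and 8099 with siIGF2R, against 6210 and 5962 with siCtrl in BOKU, and 6567 and 6485 against 3905 and 4280 in SKG-I, with log2 changes of 0.43 and 0.67 (limma adjusted p = 0.0957). The dim 224580_at had 397 and 363 against 262 and 279 in BOKU and 331 and 263 against 106 and 126 in SKG-I, a 1.41-fold and a 2.55-fold difference. The remaining 236857_at ran the other way, at 1.72 to 8.06 on the siIGF2R arrays and 14.0 to 61.8 on the siCtrl arrays, signals below the array medians of 65.3 to 74.8.

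SLC38A2, which carries much the same amino acids and is known to be induced by amino acid shortage, was nearly level. Its probe set 222982_x_at gave 21185 and 25668 on the BOKU siIGF2R arrays, 24495 and 24687 on the BOKU siCtrl arrays, 20228 and 16832 on the SKG-I siIGF2R arrays and 18394 and 17687 on the SKG-I siCtrl arrays. The siIGF2R and siCtrl arrays overlapped within each line. The log2 changes were −0.08 and 0.03 (mean −0.02, SE 0.11, limma adjusted p = 0.915), and the sign of the mean turned under quantile normalization (0.12) and under scaling to a mean signal of 1000 (0.03). The other 2 probe sets had −0.20 and −0.10 in BOKU and 0.02 and 0.003 in SKG-I. In 2 of its 3 probe sets the letter x marks probes that may bind other transcripts.

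SLC7A1, the main importer of arginine and lysine in many cells, was higher with siIGF2R mostly in SKG-I. Its probe set 212295_s_at gave 4856 and 5306 on the BOKU siIGF2R arrays, against 3548 and 3927 on the BOKU siCtrl arrays, a 1.36-fold difference. In SKG-I it gave 8784 and 9030 with siIGF2R, against 3259 and 3442 with siCtrl, a 2.66-fold difference. The groups did not overlap in either line. The mean log2 change was 0.93 ± 0.25 (SE, 2 lines, limma adjusted p = 0.0921), and the changes in the lines, 0.44 in BOKU and 1.41 in SKG-I, were farther apart than the standard error of a within-line change from duplicate arrays, 0.08, which covers array error only.

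The next brightest SLC7A1 probe sets also had the larger difference in SKG-I. The probe set 212290_at gave 265 and 196 against 153 and 212 in BOKU, where the groups overlapped, and 838 and 878 against 152 and 206 in SKG-I, a 4.85-fold difference (limma adjusted p = 0.176). It reached 500 only on the SKG-I siIGF2R arrays, so its place among measured probe sets follows from that difference. The dimmer 212292_at, at 206 and 185 against 69.0 and 49.4 in SKG-I, had 3.35-fold there and 1.15-fold in BOKU. The probe sets 206566_at and 215979_s_at stayed at 69.7 or less on all arrays, and 215979_s_at ran the other way, with log2 changes of 1.29 (BOKU) and −0.28 (SKG-I, where its groups overlapped).

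SLC1A4, an exchanger of serine, alanine and cysteine, showed the opposite pattern, with the larger difference in BOKU. Its probe set 209610_s_at gave 529 and 587 on the BOKU siIGF2R arrays, against 104 and 96.3 on the BOKU siCtrl arrays, a 5.57-fold difference. In SKG-I it gave 374 and 376 with siIGF2R, against 219 and 208 with siCtrl, a 1.76-fold difference. The siIGF2R arrays were above the siCtrl arrays in both lines, and BOKU, the lower line with siCtrl, was the higher line with siIGF2R. The mean log2 change was 1.65 ± 0.48 (SE, 2 lines, limma adjusted p = 0.104).

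The probe set of SLC1A4 with the highest mean signal, 212811_x_at, gave 418 and 532 against 170 and 185 in BOKU and 306 and 357 against 225 and 196 in SKG-I, or 2.66-fold and 1.57-fold (limma adjusted p = 0.142). Both measured probe sets reached 500 only on BOKU siIGF2R arrays, so their being measured is no support for the difference. The dim 212810_s_at had 423 and 457 against 70.9 and 72.6 in BOKU and 342 and 352 against 137 and 134 in SKG-I, which is 6.13-fold and 2.56-fold, and with no filter on low signals it was the member probe set called by limma. The dim 209611_s_at was 2.61-fold higher in BOKU with siIGF2R and overlapped in SKG-I, and 244377_at stayed at 49.3 or less.

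**Figure D2:**
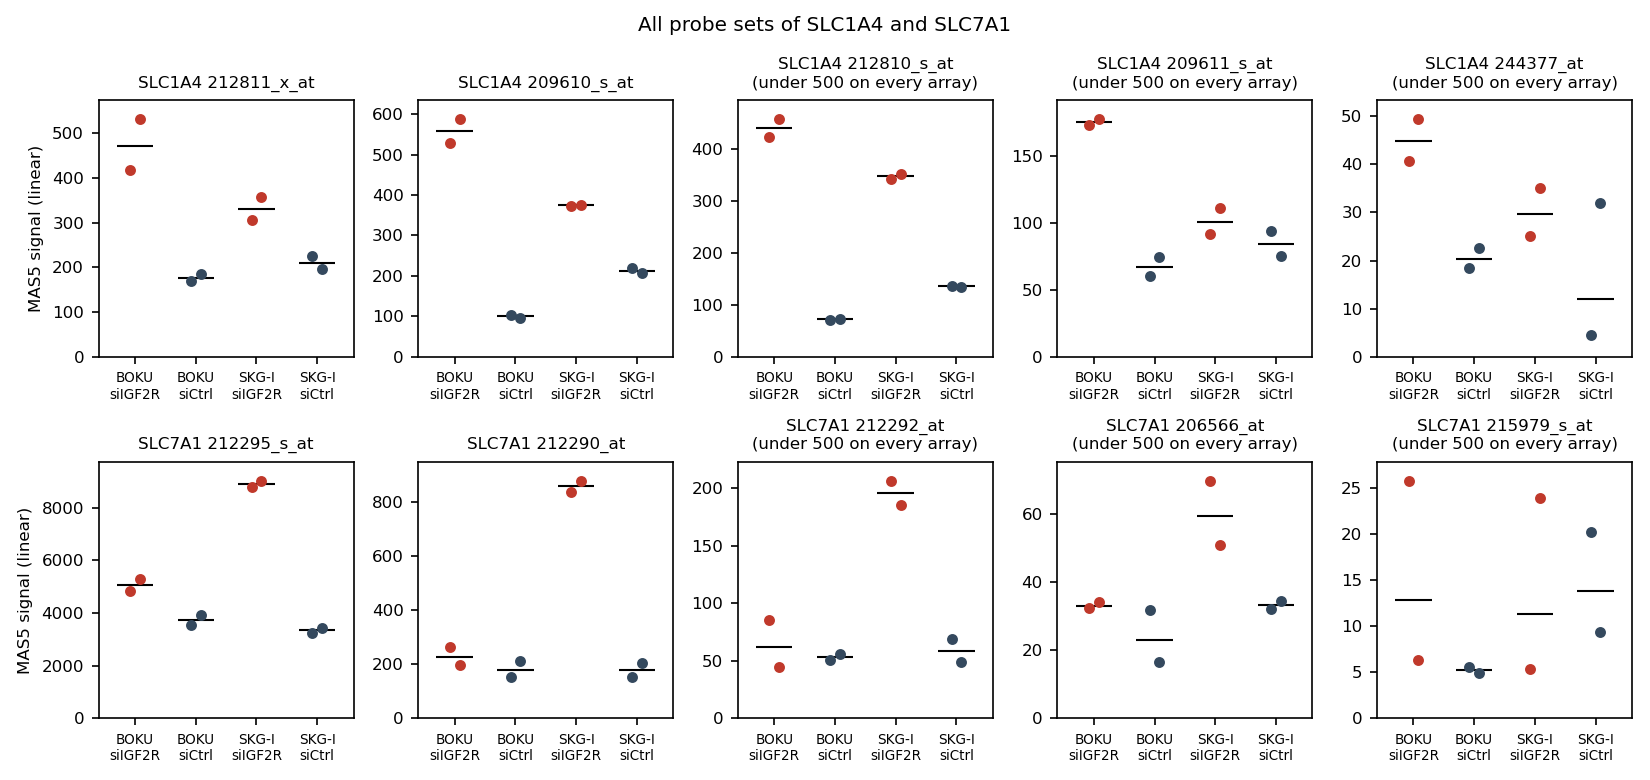
MAS5 signal (linear axis from 0) of all 5 probe sets of SLC1A4 (top) and all 5 of SLC7A1 (bottom) on the 8 arrays, siIGF2R in red and siCtrl in dark blue, with bars at the geometric means of duplicate arrays. The 2 measured SLC1A4 probe sets differ most in BOKU, and the SLC7A1 probe set 212290_at differs mainly in SKG-I, where it gave 838 and 878 against 152 and 206.

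SLC3A2, the heavy chain known as CD98 that brings SLC7A5, SLC7A6 and SLC7A8 to the cell surface, was lower with siIGF2R on all arrays. It gave 1985 and 1983 on the BOKU siIGF2R arrays, against 2612 and 2198 on the BOKU siCtrl arrays. In SKG-I it gave 3932 and 3794 with siIGF2R, against 6220 and 5500 with siCtrl. The difference was 0.83-fold in BOKU and 0.66-fold in SKG-I, with a mean log2 change of −0.44 ± 0.18 (SE, 2 lines, limma adjusted p = 0.195), so it did not pass.

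SLC7A5, the leucine exchanger itself, followed the same order of samples. It gave 3311 and 3350 on the BOKU siIGF2R arrays, against 3704 and 3498 on the BOKU siCtrl arrays, and 10134 and 10350 on the SKG-I siIGF2R arrays, against 15762 and 15149 on the SKG-I siCtrl arrays. The SKG-I siCtrl arrays were highest, the BOKU siIGF2R arrays lowest, and no 2 groups overlapped. The log2 changes were −0.11 in BOKU and −0.59 in SKG-I (mean −0.35, SE 0.17, limma adjusted p = 0.252).

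By distance over 3 log2 values (the change in each line and the siCtrl difference between lines), the genes most like SLC7A5 among 8960 others were FURIN, HLX and ATAD2, at 0.09, 0.14 and 0.21. SLC3A2 came at place 245, at 0.83. The genes nearest to SLC3A2 were SETDB1, UBN2 and ATP5PF, at 0.06, 0.09 and 0.11, and SLC7A5 came at place 900. The 2 subunits of the leucine exchanger therefore had the same signs, but each had many genes nearer to it than its partner. The distance between them came mostly from the siCtrl difference, −2.10 for SLC7A5 and −1.29 for SLC3A2. Their changes with siIGF2R were closer, at −0.11 and −0.27 in BOKU and −0.59 and −0.60 in SKG-I.

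SLC7A6, another partner of SLC3A2 that exports arginine in return for neutral amino acids, was lower in BOKU at all 3 probe sets. The probe set 203580_s_at gave 1037 and 1437 on the BOKU siIGF2R arrays, against 1665 and 2009 on the BOKU siCtrl arrays, and 1486 and 1597 against 1716 and 1865 in SKG-I. Its log2 changes were −0.58 and −0.22 (mean −0.40, SE 0.21, limma adjusted p = 0.268). The probe set 203579_s_at gave 379 and 360 against 555 and 557 in BOKU and 564 and 578 against 696 and 597 in SKG-I (limma adjusted p = 0.371). At 203578_s_at the lines went opposite ways on every array, with 335 and 363 against 525 and 542 in BOKU but 504 and 472 against 449 and 406 in SKG-I (limma adjusted p = 0.684). The direction in SKG-I thus depended on the probe set.

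SLC1A5, the glutamine exchanger, did not separate the groups in BOKU, where it gave 968 and 850 with siIGF2R, against 613 and 905 with siCtrl. In SKG-I it gave 728 and 755 with siIGF2R, against 863 and 806 with siCtrl. The mean log2 change was 0.06 ± 0.23 (SE, 2 lines, limma adjusted p = 0.895). It was −0.08 without BOKU siCtrl array 1 and 0.20 without BOKU siCtrl array 2, so the value rests on which of those arrays is kept.

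The other 2 genes stayed below 500 on every array and were not tested. SLC1A3, a glutamate and aspartate transporter best known from glia, gave 237 and 253 against 171 and 269 in BOKU and 460 and 451 against 335 and 345 in SKG-I at its brighter probe set 202800_at. The groups overlapped in BOKU and did not in SKG-I, where the difference was 1.34-fold. SLC7A8, the other large neutral amino acid exchanger that pairs with SLC3A2, reached at most 249 over its 5 probe sets. Its brightest, 216092_s_at, gave 182 and 139 against 249 and 140 in BOKU and 75.3 and 109 against 181 and 155 in SKG-I. The other probe sets of both genes lay at 159 or less, and no array of either gene was bright enough for the filter.

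**Figure D3:**
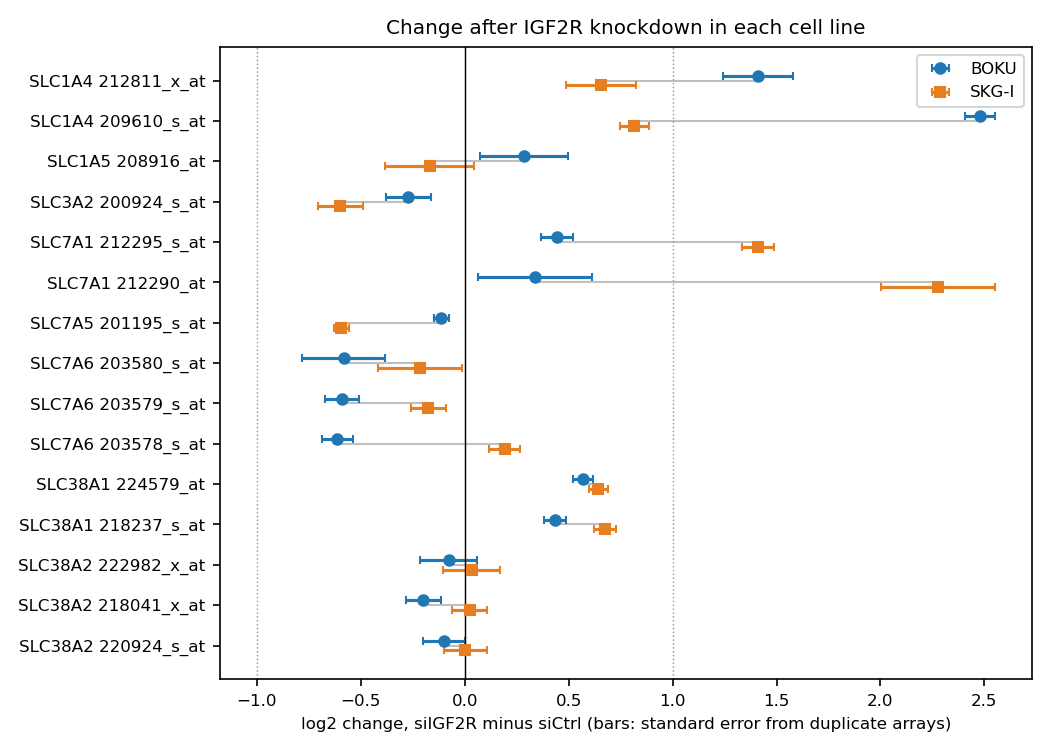
Log2 change, siIGF2R minus siCtrl, of the 15 measured transporter probe sets in BOKU (blue circles) and SKG-I (orange squares). Bars are the standard error from duplicate arrays, which covers array error only, and dotted lines mark a 2-fold change. SLC1A4 lies past 2-fold in BOKU (1.41 and 2.48) and SLC7A1 in SKG-I (1.41 and 2.28), while SLC38A1 lies at 0.43 to 0.67 in both lines.

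Counted by fold, 2 of the 15 probe sets were at least 2-fold higher with siIGF2R in BOKU, both of SLC1A4, against 7.51% of all measured probe sets. Both reached the signal of a measured probe set only on BOKU siIGF2R arrays, so their being measured followed from the difference counted. In SKG-I 2 were at least 2-fold higher, both of SLC7A1, against 8.62% of all. Of these, 212290_at likewise reached that signal only on SKG-I siIGF2R arrays, while 212295_s_at reached it on every array. None was at least 2-fold lower in BOKU (4.92% of all) or in SKG-I (6.33% of all). No measured member probe set was at least 2-fold higher (3.15% of all) or lower (2.28% of all) in both lines. Among measured probe sets, the 2-fold differences were thus found in 1 line each, and 1 gene stood for each count. Below the filter, the SLC1A4 probe set 212810_s_at was 6.13-fold higher in BOKU and 2.56-fold in SKG-I. The dim 209611_s_at was 2.61-fold and 1.20-fold higher, so the restriction of SLC1A4 to 1 line depends on the filter.

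By arrays, both siIGF2R arrays lay above both siCtrl arrays in both lines for 5 of the 15 probe sets, of SLC1A4, SLC7A1 and SLC38A1, against 26.4% of all. They lay below in both lines for 4, of SLC3A2, SLC7A5 and SLC7A6, against 23.6% of all. They lay on opposite sides in the 2 lines for 1, of SLC7A6, against 13% of all. These shares are near the background, so they are no result about the transporters.

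For SLC7A5 and SLC3A2 the lines differed more in level than siIGF2R differed from siCtrl within either line. With siCtrl, the log2 difference, BOKU minus SKG-I, was −2.10 for SLC7A5, which is a 4.29-fold higher level in SKG-I. For SLC3A2 it was −1.29, or 2.44-fold higher in SKG-I. For SLC1A4 it was −1.09 at 209610_s_at (2.13-fold higher in SKG-I) and −0.25 at 212811_x_at, less than its change with siIGF2R in BOKU. The first of these SLC1A4 probe sets and those of SLC7A5 and SLC3A2 were at least 2-fold lower in BOKU, against 18.6% of all measured probe sets, and 0 were at least 2-fold higher in BOKU, against 16.4% of all. A line is 1 RNA sample here, so these differences were not tested.

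The SLC38 genes leaned the other way. SLC38A1 was higher in BOKU by 0.31 and 0.57 on the log2 scale at its 2 measured probe sets, and SLC38A2 by 0.45 to 0.53 at its 3, with both BOKU siCtrl arrays above both SKG-I siCtrl arrays in each. SLC7A1 differed by 0.16 and 0.03, SLC1A5 by −0.16 and the SLC7A6 probe sets by −0.21 to 0.32. Some epithelial and fibroblast markers differed between the lines as well. With siCtrl, EPCAM gave 50.8 and 17.9 in BOKU and 1536 and 1518 in SKG-I, and CDH1 gave 2.13 and 3.15 in BOKU and 143 and 173 in SKG-I. KRT19 went the other way, with 17112 and 18705 in BOKU and 7024 and 7222 in SKG-I, while KRT18 differed by 0.006 on the log2 scale and KRT8 by −0.51, BOKU minus SKG-I. The 7 fibroblast markers summed, with siCtrl, to 1580 to 1633 in BOKU and 8020 to 8057 in SKG-I, with 2 of 7 measured (COL1A1 and COL3A1). Most of each sum came from these 2. With siCtrl, COL1A1 gave 1365 and 1398 in BOKU and 5574 and 5684 in SKG-I, and COL3A1 26.0 and 19.1 against 1965 and 2013. COL1A2, LUM and THY1 stayed at 102 or less on all arrays. With siIGF2R the fibroblast sums were 1452 to 1769 in BOKU and 6012 to 6263 in SKG-I. Those of the 7 epithelial markers, 5 of them measured, were 31399 to 36708 with siIGF2R and 41595 to 43770 with siCtrl in BOKU, and 28285 to 28933 with siIGF2R and 37336 to 37737 with siCtrl in SKG-I. Within SKG-I, KRT19 gave 1968 and 1939 with siIGF2R, against 7024 and 7222 with siCtrl, and CDH1 gave 619 and 652 against 143 and 173, opposite differences that the sums do not show. The part of these markers in the transporter values was not tested.

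**Figure D4:**
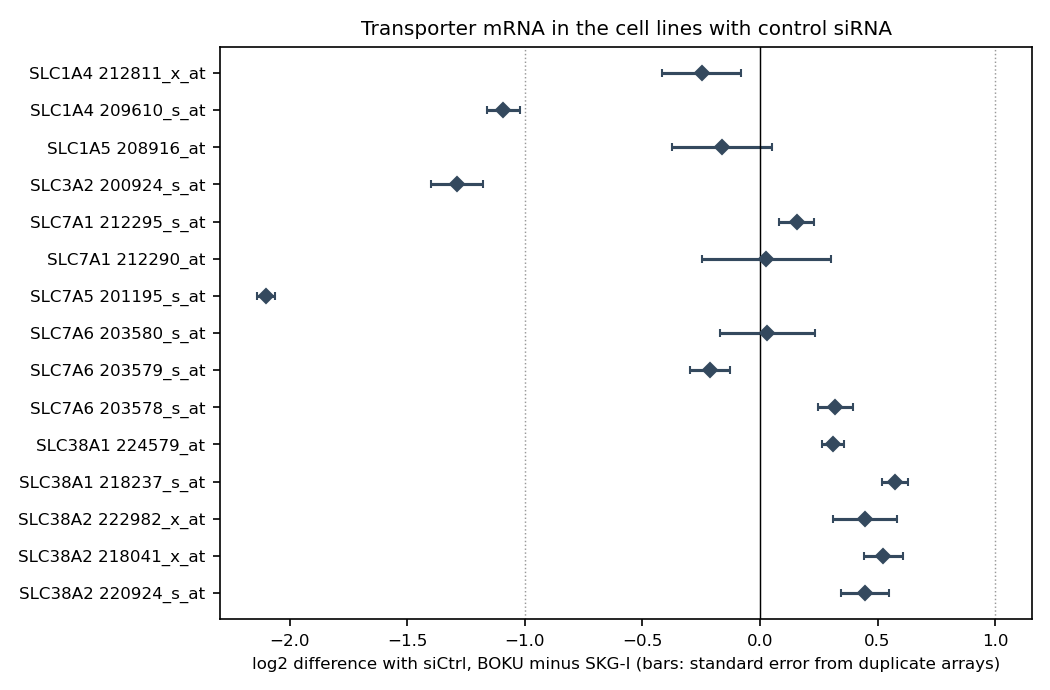
Log2 difference with siCtrl, BOKU minus SKG-I, of the 15 measured transporter probe sets, with the standard error from duplicate arrays (array error only) and dotted lines at 2-fold. SLC7A5 (−2.10), SLC3A2 (−1.29) and one SLC1A4 probe set (−1.09) lie left of the 2-fold line, and none lies past it on the right.

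Several transporter genes are known targets of ATF4, so their promoters were read for the core of its composite site, TGATGNAA on either strand (N is any base). A RefSeq window of 300 bases, from 250 before to 50 after each start, was available for all 10 genes, in 21 windows. The motif stood in 1 window each of 6 genes, or 28.6% of the 21 windows, against 3.62% of all 35116 windows. By gene it was 60% of 10, against 4.46% of 27305. Because known targets of ATF4 were among the genes chosen, a share above that of all genes is no test of them. Among related genes the motif stood in 43.8% of 16 tRNA synthetases and 16.7% of 12 enzymes of glutamine and glutamate. It stood in 22.2% of 18 genes from a list of ATF4 and genes downstream of it. It stood in 0 of 19 other plasma membrane amino acid transporters and 0 of 16 lysosomal and mitochondrial carriers. The matches are shown with the motif in capitals, since they are the letters that these genes share. On the opposite strand, as in SLC1A4 and SLC3A2, the motif reads TTNCATCA.
SLC1A3: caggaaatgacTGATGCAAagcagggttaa
SLC1A4: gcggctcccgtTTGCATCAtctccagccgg
SLC1A5: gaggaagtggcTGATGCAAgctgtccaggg
SLC3A2: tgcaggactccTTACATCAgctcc
SLC7A1: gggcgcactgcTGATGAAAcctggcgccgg
SLC38A1: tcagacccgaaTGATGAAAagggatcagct

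These stretches are from GRCh38.p14, written in the sense of the gene. They lie at chr5:36596357-36596386 on the plus strand for SLC1A3, chr2:64989381-64989410 on the plus strand for SLC1A4 and chr19:46784893-46784922 on the minus strand for SLC1A5. The others lie at chr11:62881725-62881748 on the plus strand for SLC3A2, chr13:29595663-29595692 on the minus strand for SLC7A1 and chr12:46266502-46266531 on the minus strand for SLC38A1. Counted from the start, the motif begins at −220, −7 and −97 in the first 3 genes and at 38, 8 and −4 in the others. SLC7A5, SLC7A6, SLC7A8 and SLC38A2 had no match in these windows. The genes with a match included those with higher signals on siIGF2R arrays in both lines (SLC1A4, SLC7A1, SLC38A1), but also SLC3A2, which was lower on all arrays, and SLC1A5, which was nearly level. A match is a description of letters and not a site.

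The list of genes downstream of ATF4 held 23 measured genes, with ATF4 itself counted among them. Of these 23, 3 rose and 0 fell over both lines, against 2.59% and 2.35% of all genes. They were the glutathione-degrading enzyme CHAC1 (log2 change 1.71, SE 0.24, limma adjusted p = 0.0313), the stress factor ATF3 (1.51, standard error 0.20, adjusted p = 0.0284) and the mitochondrial folate enzyme MTHFD2 (1.36, standard error 0.18, adjusted p = 0.0292). With the mean of its probe sets, ATF3 had an adjusted p of 0.0523. ATF4 was not called, with log2 changes of 0.58 in BOKU and 0.14 in SKG-I (limma adjusted p = 0.203). The list's median log2 change was 0.70 in BOKU and 0.16 in SKG-I, beside 0.03 and −0.03 over all genes. At an unadjusted p under 0.05, 10 of its genes were higher and 1, NUPR1, lower, against 1286 and 1248 of all 8961 genes.

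The log2 change was higher in BOKU than in SKG-I for 18 of the 23 genes (78.3%) and lower for 5, against 55.4% higher among all genes. By sign, 13 of the 23 genes were higher and 4 lower in both lines, against 3200 and 3196 of all 8961 genes. The 4 lower ones, in BOKU and SKG-I, were NUPR1 (−0.67 and −1.49), PSAT1 (−0.07 and −1.26), DDIT4 (−0.006 and −0.70) and PSPH (−0.33 and −0.32). None of these passed the test, with an adjusted limma p of 0.0746 for NUPR1. The genes named next were picked after their values were seen. STC2, a secreted glycoprotein, had the larger change in SKG-I (0.70 in BOKU, 2.44 in SKG-I), as did CTH, an enzyme of cysteine synthesis (0.88 and 1.69), and the lipoprotein receptor VLDLR (0.35 and 1.41), and none of these passed the test. TRIB3, ASNS and PHGDH had theirs in BOKU. ASNS, the asparagine synthetase, gave 2402 and 2458 with siIGF2R, against 417 and 362 with siCtrl in BOKU, and 2579 and 2683 against 2638 and 2760 in SKG-I. Its log2 changes were 2.64 and −0.04, and those of the serine synthesis enzyme PHGDH were 2.22 and 0.04 and of the kinase-like TRIB3 2.52 and 0.52. ASNS, PHGDH and TRIB3 did not pass the limma test either (adjusted p of 0.22, 0.218 and 0.11). With siCtrl these were all lower in BOKU, with log2 differences, BOKU minus SKG-I, of −2.80, −2.93 and −2.07.

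Of 28 other plasma membrane amino acid transporters on the arrays, only 4 were measured and 0 were called. SLC1A1, a glutamate and cysteine transporter, had the largest mean change. It gave 411 and 435 with siIGF2R, against 153 and 139 with siCtrl in BOKU, and 1128 and 1153 against 635 and 594 in SKG-I (log2 change 1.22, SE 0.28, limma adjusted p = 0.0702, but 0.0395 without BOKU siCtrl array 1 and 0.0459 without BOKU siIGF2R array 2). The taurine transporter SLC6A6 had a log2 change of −0.10 in BOKU against 1.04 in SKG-I, and also did not pass (limma adjusted p = 0.352). SLC7A11 had −0.65 in BOKU and −0.03 in SKG-I (limma adjusted p = 0.329). SLC7A2 had 1.01 in SKG-I and −0.24 in BOKU, where its signals were 23.1 or less (limma adjusted p = 0.585). At an unadjusted p under 0.05, 1 of the 4 was higher and 0 lower, against 1286 and 1248 of all 8961 genes.

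Of 16 carriers of lysosomes and mitochondria, 13 were measured, 1 rose and 1 fell. The proton-coupled carrier SLC36A1, which exports small neutral amino acids from lysosomes, gave 2801 and 4178 with siIGF2R, against 1151 and 1766 with siCtrl in BOKU, and 901 and 1106 against 268 and 236 in SKG-I. It rose by 1.63 ± 0.25 (SE, 2 lines, limma adjusted p = 0.0346). The lysosomal arginine sensor SLC38A9 gave 600 and 568 against 1682 and 1852 in BOKU and 454 and 476 against 1007 and 957 in SKG-I. It fell by 1.34 (standard error 0.23, adjusted p = 0.0434), but without BOKU siCtrl array 2 the adjusted p was 0.0541.

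Of 17 measured cytosolic tRNA synthetases, which attach amino acids to their tRNAs, 1 fell and 0 rose. It was the lysine enzyme KARS1 (log2 change −1.32, SE 0.14, limma adjusted p = 0.0221), at 6088 and 6824 against 16332 and 18461 in BOKU and 6341 and 6572 against 14030 and 15714 in SKG-I. The study's supplement lists the gene, under its older symbol KARS, from these same arrays, so it is not independent evidence. Of 10 measured enzymes of glutamine and glutamate, glutamine synthetase GLUL rose, by 1.02 (standard error 0.17, adjusted p = 0.0408), and its other 2 probe sets, with 0.76 and 0.82, did not pass (adjusted p = 0.145 and 0.107). Without the variance trend, limma called 0 probe sets in the whole table, so each call given here rests on that trend.

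**Figure D5:**
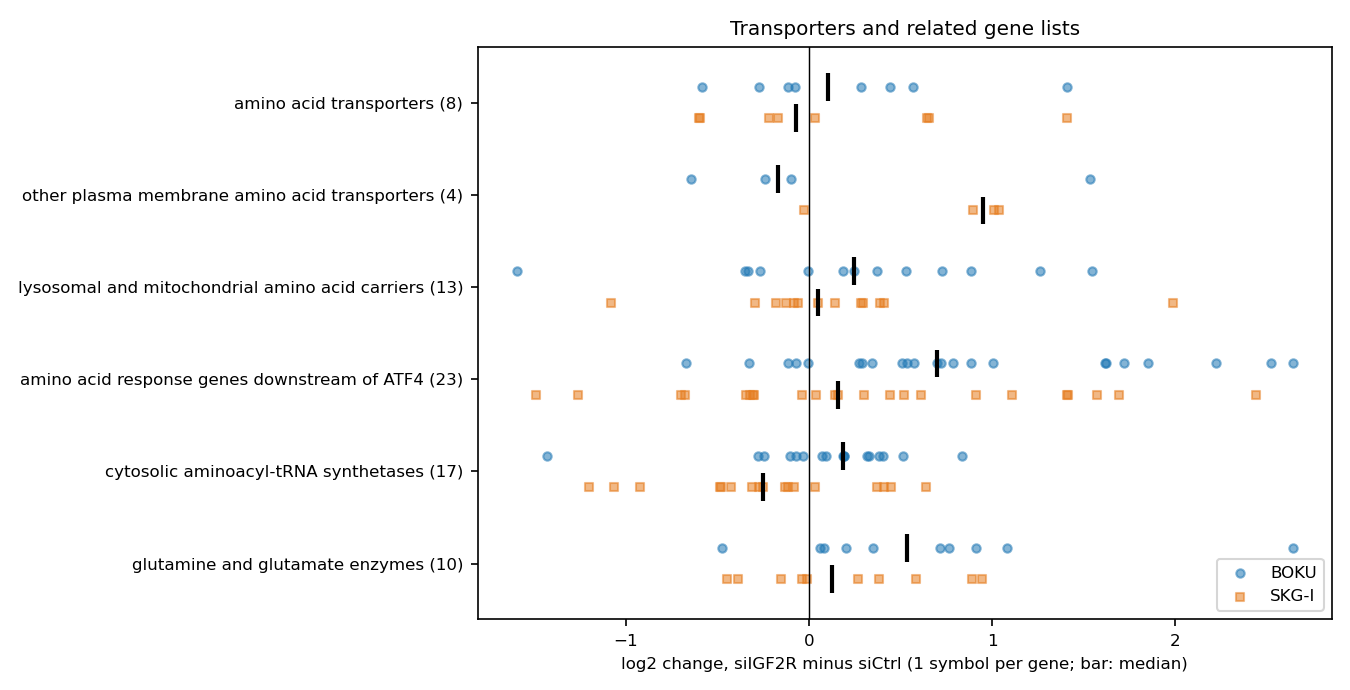
Log2 change, siIGF2R minus siCtrl, of the measured genes of 6 lists in BOKU (blue circles) and SKG-I (orange squares), with 1 point per gene, the number of measured genes in brackets and the median as a black bar. The ATF4 list has the highest median in BOKU (0.70, against 0.16 in SKG-I), while the transporters straddle 0 in both lines.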

How the data were processed

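Transporter mRNA was read from GeneChip arrays of BOKU and SKG-I cells. The values the authors deposited are intensities, namely linear MAS5 signals of each probe set. The methods state scaling to a mean of 1000, but the deposited arrays have means of 752 to 840 and a trimmed mean of about 500. The genome build is not given in the sources used here. Signals were put on the log2 scale with no added constant, duplicate arrays of an RNA were averaged, 62 control probe sets were removed, and a probe set was kept if any of the 8 arrays reached 500. The siRNA effect was fitted over all 16517 probe sets with limma 3.58.1 in R 4.3.3, blocked on the cell line, with a variance trend, 1 residual and 4.82 prior degrees of freedom, a two-sided test and Benjamini-Hochberg adjustment at 0.05. Each gene was represented by its brightest probe set on average. Differences of at least 2-fold within a line, and between lines with siCtrl, were counted without a test.

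Gene names came from the platform annotation, and probe sets of several genes were not used for members. Of each list, up to 3 called genes in each direction with the largest effect are named, or else up to 2 with the largest mean change. For the other plasma membrane transporters, all measured genes are given. The members, lists and rule were chosen with earlier results of these data known. Promoter windows were RefSeq sequences of GRCh38.p14. The fit was tested on simulated data. Alternatives covered the scaling, low signals, the filter, the variance model, the blocks, single arrays and fold thresholds. They also covered the methods' t-test with its fold threshold and the choice of probe set. A filter at 250 was added after the values had been seen. Precision is limited by having only 4 RNA samples. Genes of the lists not found under their symbol were not analyzed here.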

Additional observations from a re-analysis of the deposited data

Results flagged for a closer look

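The probe set 203578_s_at of SLC7A6 went opposite ways in the 2 lines on every array, lower with siIGF2R in BOKU (−0.61) and higher in SKG-I (0.19), so that the change in BOKU minus that in SKG-I was −0.81 on the log2 scale. This difference was not tested, and 13% of all measured probe sets had opposite sides in the lines. The other 2 probe sets of SLC7A6 were lower with siIGF2R in both lines.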

How the results depend on the processing

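Over the 8 measured genes there were 177 alternatives to their values. Of these, 159 kept the direction and the side of the threshold, 12 passed the threshold and 6 turned direction. Except for SLC38A1 without BOKU siCtrl array 1, those that passed came from fits that treat arrays of the same RNA as separate samples. SLC38A2 turned to 0.124 after quantile normalization, 0.0276 after scaling to a mean of 1000 and to as high as 0.0474 without single arrays (lowest −0.0911). SLC1A5 turned to −0.0463 with median scaling and lay between −0.0826 and 0.198 without single arrays. The count of member probe sets called by limma, 0 of 15, was 0 to 1 without single arrays (SLC38A1, without BOKU siCtrl array 1) and 1 with no filter (SLC1A4), while 709 of all probe sets were called, 462 to 1633 without single arrays. With the arrays as separate samples it was 10 (8102 of all), and with the replicate block, which treats array numbers as pairs, 7 (6663 of all). In both fits the arrays of the same RNA count as samples, which sets the larger counts. Deviations of same-numbered arrays correlated at 0.126 (BOKU) and 0.0631 (SKG-I), and the labels do not say that a number marks a batch. The methods' rule, a change of over 2-fold followed by a t-test, called 0 member probe sets, before and after adjustment. Run on the arrays of each line, it asked for that change in both lines. Because 0 measured member probe sets had it, that 0 was fixed before the t-test and tests nothing. Run on the RNA samples, the rule called 338 of all probe sets before adjustment. After adjustment it called 0 of all, which says nothing about the members. The count changed at least 2-fold in both lines, 0, was 1 with scaling to a mean of 1000 and 2 at 1.5-fold, both of SLC1A4 probe sets. The 3 that differed 2-fold between lines with siCtrl were 5 with that scaling, 1 at 3-fold (SLC7A5) and 2 after quantile normalization or with a constant of 64 added, where SLC1A4 was no longer among them. Without the line block or the variance trend, 0 of all probe sets were called. Filtering at 250, GLUL and SLC38A9 did not pass (adjusted p = 0.0529 and 0.0548), nor GLUL with the mean of its probe sets (0.0908) or SLC38A9 after scaling to a mean of 1000 (0.0555), with gene means (0.0559) or with only probe sets that match 1 transcript (0.0520).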
